A study of Mus musculus with 6 samples.

Results

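The 3 myocyte enhancer factor 2 genes Mef2a, Mef2c and Mef2d, the muscle methyltransferase gene Smyd1, and the 4 class IIa histone deacetylase genes Hdac4, Hdac5, Hdac7 and Hdac9 were followed in differentiating mouse C2C12 muscle cells with and without depletion of Adamtsl2. The genes were taken by symbol from a fixed list of 8, and 8 of 8 were found among the 16854 genes measured. C2C12 is a myoblast line that stops dividing and fuses into myotubes when serum is lowered. Both groups had reached confluence, were then held in 2% horse serum, and were collected on day 3 of differentiation; the 3 control libraries came from cells with a scrambled hairpin and the 3 knockdown libraries from cells with a stably overexpressed short hairpin RNA against Adamtsl2. Adamtsl2 encodes a secreted matrix glycoprotein, and by its title the series concerns Wnt signalling in muscle formation. Only 1 hairpin is named, so what the depletion did cannot be told apart from other differences between the 2 stably modified cell populations. The labels do not say whether the libraries of a group came from separate cultures, so p-values measure the spread between these libraries, which may be technical.

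MEF2 proteins bind an AT-rich sequence in the control regions of many muscle genes and work together with the myogenic factors MyoD and myogenin. Class IIa deacetylases bind MEF2 directly, have little catalytic activity of their own, and bring in a corepressor complex that contains Hdac3. Calcium-dependent kinases, protein kinase D and salt-inducible kinases phosphorylate them, and the phosphorylated forms are held in the cytoplasm by 14-3-3 proteins, which frees MEF2. Smyd1 encodes a methyltransferase of heart and skeletal muscle that also takes part in the folding of myosin with the chaperone Unc45b.

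The libraries held 37346439 to 50329438 reads. Adamtsl2, the target of the hairpin, had normalised counts (reads divided by a size factor per library) of 1325, 1266 and 1307 in control and 23.2, 21.7 and 7.83 in the knockdown. The third knockdown library stood apart: its correlation with the other knockdown libraries over log2 values was 0.917 and 0.920, against 0.993 to 0.995 among controls, 2.83% of its reads were from the nuclear RNA Malat1 (0.302 to 0.515% in the others), and protein-coding genes took 93.6% against 97.7 to 98.0%. The change of each of the 8 genes and the counts of each gene list are therefore given with and without it. For other named genes the value without it is given only for some. Where it is not given, the size of the change could also differ without that library. Of 8 skeletal muscle markers (Myod1, Myf5, Myog, Des, Myh3, Ckm, Acta1 and Cdh15), 7 were lower and 1, Myf5, was higher in the knockdown (limma, adjusted p under 0.05, described below). The counts were the same without the third knockdown library. Over all genes tested 23.5% were lower and 21.7% higher, and 39.9% and 38.6% without that library. The summed normalised count of the 8 markers was 935900 to 963550 in control and 9223 to 11458 in the knockdown. Of 6 fibroblast markers Thy1 was not found by symbol. Among the 5 tested, Dcn was higher, Col1a1 was lower and 3 did not pass the threshold, with a median log2 change of 0.47. Without the third knockdown library 3 were higher and 2 lower, with a median of 0.89. The summed normalised count of the 5 was 320693 to 365492 in control and 113558 to 167457 in the knockdown, so the sum fell while the median change was positive. Of 5 adipocyte markers only Pparg was found by symbol, and it was higher. Of 5 osteoblast markers 2 were found, Runx2 and Alpl, and both were higher. Of 4 endothelial markers 2 were found and only Tek was tested, which was higher. Alpl and Tek were below 10 in every control library and were tested only through the knockdown libraries. So few markers cannot show whether such cells were present. Of 5 smooth muscle genes Cnn1 and Acta2 were lower. The others (Myh11, Smtn and Lmod1) had positive log2 values that did not pass, the median was 0.36, and Smtn was higher without the third knockdown library. Of 4 macrophage markers only Cd68 and Csf1r were found. Neither passed, and 1 of the 2 was lower without the third knockdown library. The part of cell composition in the changes below was not tested, and in these bulk samples fewer cells of a type and less RNA per cell cannot be told apart.

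The promoter sequences are shown because the genes fell and rose to very different extents, and they let the reader look for the E-boxes of the MyoD family and for MEF2 sites just before each start. RefSeq (GRCm38.p6) gave 14 windows for the 8 genes, and the 250 bases before the start were searched on both strands for CAGCTG, the E-box form that MyoD and myogenin prefer, for any E-box CANNTG (which includes CAGCTG), for a looser MEF2-like core (CTA and TAG with 4 bases between, which the MEF2 consensus can overlap), and for the MEF2 consensus. CAGCTG was in 2 of the 14 windows, both of Hdac9, and in 13.0% of all 32851 promoter windows of the same length. CANNTG was in 6 of the 14 and in 66.2% of all windows, and the looser core was in 2 of the 14 (1 of Hdac5 and 1 of Hdac9) and in 3.20% of all. The MEF2 consensus was in 1 of the 14 windows, that of Hdac5, where it starts 20 bases before the start site, and in 2.92% of all. Smyd1 and the 3 windows of Mef2c held neither CAGCTG nor the MEF2 consensus, and no match says only that these letters are not in these windows. The Hdac5, Hdac9 and Smyd1 windows are given from 5′ to 3′ on the strand of the gene, which is the minus strand for each, with CAGCTG and the MEF2 consensus in capitals. They lie at chr11:102230173-102230422 (Hdac5), chr12:34917096-34917345 (Hdac9, distal start), chr12:34528890-34529139 (Hdac9, internal start) and chr6:71262282-71262531 (Smyd1).
Hdac5: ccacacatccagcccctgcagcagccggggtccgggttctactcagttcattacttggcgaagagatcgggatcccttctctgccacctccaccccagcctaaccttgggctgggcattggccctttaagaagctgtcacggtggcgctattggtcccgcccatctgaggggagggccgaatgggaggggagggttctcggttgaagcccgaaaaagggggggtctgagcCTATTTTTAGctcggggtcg
Hdac9 distal: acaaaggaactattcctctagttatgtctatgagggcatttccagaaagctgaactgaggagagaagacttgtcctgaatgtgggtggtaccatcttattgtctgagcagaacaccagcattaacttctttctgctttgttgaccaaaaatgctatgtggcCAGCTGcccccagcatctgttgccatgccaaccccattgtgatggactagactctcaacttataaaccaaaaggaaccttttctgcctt
Hdac9 internal: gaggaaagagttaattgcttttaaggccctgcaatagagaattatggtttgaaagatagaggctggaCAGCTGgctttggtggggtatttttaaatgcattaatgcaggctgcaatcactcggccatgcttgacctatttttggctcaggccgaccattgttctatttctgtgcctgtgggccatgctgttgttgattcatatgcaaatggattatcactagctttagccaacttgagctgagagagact
Smyd1: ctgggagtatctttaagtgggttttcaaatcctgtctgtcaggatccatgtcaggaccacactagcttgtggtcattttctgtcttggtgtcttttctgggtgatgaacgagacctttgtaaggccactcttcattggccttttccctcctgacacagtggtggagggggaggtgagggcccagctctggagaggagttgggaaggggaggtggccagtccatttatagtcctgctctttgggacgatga

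In the knockdown, Mef2c RNA fell to near the limit of detection and Smyd1 fell 355-fold, to 22 to 54 reads per library. Mef2a fell about 5-fold and Hdac7 rose 2.28-fold, while Mef2d, Hdac4, Hdac5 and Hdac9 did not pass the threshold with all 6 libraries. The test was limma on log2(normalised count + 1), with p adjusted by the Benjamini-Hochberg method over the 16245 genes that reached a normalised count of 10 in 3 or more libraries, at 0.05. Of the 8 genes, 3 were lower and 1 was higher, where 23.5% of all genes tested were lower and 21.7% higher. Without the third knockdown library 6 were lower (Mef2a, Mef2c, Mef2d, Smyd1, Hdac4 and Hdac9) and 2 higher (Hdac5 and Hdac7), where 39.9% and 38.6% of all genes were. edgeR and DESeq2, run on the recovered reads, both called Hdac5 and Hdac7 higher, and DESeq2 called Mef2d lower beside Mef2a, Mef2c and Smyd1; they called 23.2% and 27.2% of all genes higher and 22.0% and 25.8% lower. With the third knockdown library left out, both tools also called 6 of the 8 lower and 2 higher, where edgeR called 39.8% of all genes lower and 39.9% higher and DESeq2 38.1% and 36.9%. The median log2 change was -1.74 over the 8 genes and 0.00 over all genes tested. The knockdown values lay wholly below the control values for 5 of the 8 genes and wholly above for 2, against 32.7% and 30.0% of all genes, and overlapped for Hdac4. Mef2c and Hdac9 had fewer than 3 knockdown libraries at the minimum of 10 and entered the test through the control libraries, so that they were tested only because they were high there.

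**Figure D1:**
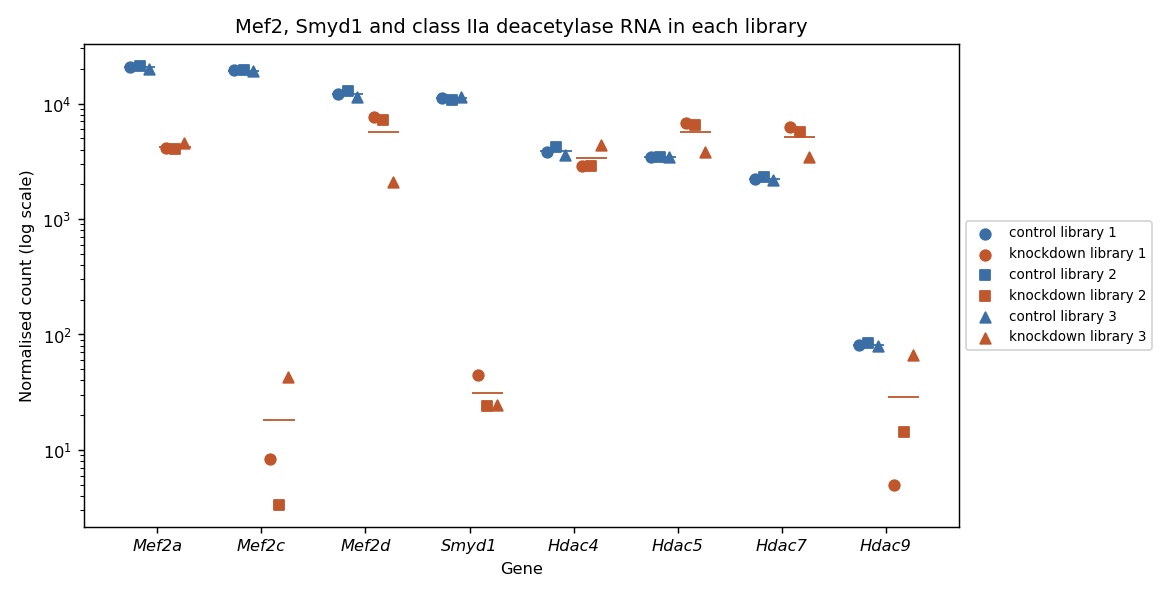
Normalised count (vertical axis, log scale) of each of the 8 genes in each library, with control in blue, knockdown in orange, 1 marker shape per library number, and a short line at the mean of 3 libraries. Mef2c drops from 19025 or more to 42.5 or less and Smyd1 from 10697 or more to 44.8 or less, and the third knockdown library (orange triangles) lies apart from the other knockdown libraries for Mef2c, Mef2d, Hdac4, Hdac5, Hdac7 and Hdac9.

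Mef2c (ENSMUSG00000005583, GRCm38 chromosome 13, 83504034 to 83667080, plus strand) encodes the MEF2 form most closely tied to the late steps of muscle differentiation. Its normalised counts were 19469, 19461 and 19025 in control and 8.29, 3.35 and 42.5 in the knockdown. The groups were far apart, and the third knockdown library, with 38 reads, was 7.30 times as high as the mean of the other knockdown libraries, which had 10 and 4 reads. The log2 change was -10.65 ± 0.80 (SE; every log2 change here compares 3 with 3 libraries unless one is left out; adjusted p = 1.8e-04, limma). This was the sixth-largest fall among the 16245 genes tested. The ratio of means was 1071-fold with all libraries and 3320-fold without the third knockdown library, where the log2 change was -11.57 ± 0.24 (adjusted p = 4.9e-11, limma).

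Mef2a (ENSMUSG00000030557, chromosome 7, 67231163 to 67372858, minus strand) encodes a MEF2 protein made in most tissues. It was at 20838, 21184 and 20012 in control and at 4125, 4074 and 4511 in the knockdown. Within each group the 3 libraries were close together, and the third knockdown library lay with the other knockdown libraries for this gene. The log2 change was -2.29 ± 0.11 (adjusted p = 4.2e-05, limma), a fall of 4.88-fold. The fall was 5.04-fold without the third knockdown library. Its exons overlap 302 bases of Lysmd4 on the other strand, and the strand setting of the counting is not given in the sources used here; Lysmd4 was at 581 to 684 in control and 221 to 632 in the knockdown, far below Mef2a.

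Mef2d (ENSMUSG00000001419, chromosome 3, 88142372 to 88172086, plus strand), the family member found in both dividing myoblasts and myotubes, was at 12013, 12938 and 11469 in control and at 7713, 7253 and 2105 in the knockdown. All knockdown values were below the control values, but the third library was at 0.281 of the mean of the other knockdown libraries. The log2 change of -1.31 ± 0.51 did not pass (adjusted p = 0.082, limma). It was smaller and passed without the third knockdown library, at -0.70 ± 0.06 (adjusted p = 1.7e-06, limma). In the authors' deposited table the log2 fold change of Mef2d was -1.09, with an adjusted p of 0.052. Exons of the antisense gene 1700113A16Rik overlap 531 bases of Mef2d, and this gene was at 18.9 to 29.4 in control, 41.5 and 40.1 in knockdown libraries 1 and 2, and 123 in the third. Mef2b, the remaining gene of the family, was not analysed here.

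Read per length, the summed Mef2 RNA was lower in every knockdown library than in any control library, and Mef2c was nearly absent from it. The summed level of Mef2a, Mef2c and Mef2d, each divided by its exonic length, was 4665, 4843 and 4490 per kilobase in control and 1570, 1490 and 662 in the knockdown, with a mean 3.76-fold lower. Mef2c made up 26.6, 25.6 and 27.0% of this sum in control and 0.0336, 0.0143 and 0.409% in the knockdown. Mef2d made up 43.0, 44.6 and 42.7% in control and 82.1, 81.4 and 53.2% in the knockdown. No library of one group reached the range of the other for either share (exact two-sided permutation test, p = 0.1 for each, the smallest that 3 against 3 libraries allow). The share of Mef2a was 29.8 to 30.4% in control, 17.9 and 18.6% in knockdown libraries 1 and 2, and 46.4% in the third, so that the groups overlapped (exact permutation p = 1). A mean over the 3 knockdown libraries does not describe Mef2a's share, since the libraries lie on both sides of the control values. These 7 family shares and the ratio of the families were each tested on their own; with a floor of 0.1, adjustment can bring none of them under 0.05.

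Smyd1 (ENSMUSG00000055027, chromosome 6, 71213940 to 71322233, minus strand) had the highest level per length of the 8 genes in control cells. It was at 11112, 10697 and 11440 in control and at 44.8, 24.3 and 24.6 in the knockdown, from 54, 29 and 22 reads. The third knockdown library was the same as the second for this gene to within 1 normalised count, unlike for Mef2c. The log2 change was -8.48 ± 0.26 (adjusted p = 8.6e-06, limma), or 355-fold lower, and the fall was the 44th largest of the genes tested. Leaving out the third knockdown library gave -8.35 ± 0.19. The window searched for motifs lies inside the annotated gene, since the annotation used for positions starts Smyd1 further upstream than RefSeq does.

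Unc45b, the myosin chaperone that works with Smyd1, fell as well, with a log2 change of -8.27 ± 0.26 (adjusted p = 9.6e-06, limma). Its normalised counts were 15017, 14741 and 15284 in control and 66.3, 50.2 and 32.4 in the knockdown. Among the 7 genes of the SMYD family and the chaperone partners, 1 was lower and 2 higher, with a median log2 change of -0.42 against 0.00 over all genes, and without the third knockdown library 3 were lower and 3 higher. Over all genes 23.5% were lower and 21.7% higher, and 39.9% and 38.6% without that library. Smyd4 was higher by 1.85 ± 0.44 (adjusted p = 0.016, limma) and Smyd3 by 0.54 ± 0.12 (adjusted p = 0.012, limma); both calls were lost without control library 1 or control library 3, with adjusted p up to 0.064 and 0.067. Smyd4 was at 633 to 831 in control and at 1808, 1858 and 5382 in the knockdown.

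Of the 4 class IIa deacetylases, Hdac7 was higher and the others did not pass with 6 libraries; without the third knockdown library Hdac5 and Hdac7 were higher and Hdac4 and Hdac9 lower. Hdac7 (ENSMUSG00000022475, chromosome 15, 97792664 to 97844502, minus strand), best known from blood vessels and thymocytes, was at 2216, 2309 and 2181 in control and at 6232, 5654 and 3434 in the knockdown. Every knockdown value was above every control value, and the third library rose least. The log2 change was 1.15 ± 0.24 (adjusted p = 0.0097, limma), or 2.28-fold, and it was 1.41 ± 0.06 without the third knockdown library. It passed with any 1 library left out (highest adjusted p = 0.044, limma). The authors' deposited table gave a log2 fold change of 1.19. Exons of Hdac7 overlap 29 bases of Slc48a1 on the other strand. Slc48a1 was at 3933 to 4690 in control and at 10138, 10329 and 8081 in the knockdown. Its part in the Hdac7 counts was not tested.

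Hdac5 (ENSMUSG00000008855, chromosome 11, 102194432 to 102230166, minus strand) encodes a deacetylase whose export from the nucleus is a classical step of muscle differentiation. It was at 3446, 3413 and 3435 in control and at 6797, 6568 and 3795 in the knockdown. The third knockdown library lay just above the controls and the others at 1.95 times the control mean. The log2 change of 0.69 ± 0.24 did not pass with 6 libraries (adjusted p = 0.061, limma). It was 0.96 ± 0.04 without the third knockdown library (adjusted p = 1.6e-08, limma). Hdac5 is close to the threshold and its call depended on the tool: edgeR's quasi-likelihood test gave an adjusted p of 0.038, DESeq2 gave 0.011 and an adjusted p of 0.016 stood in the authors' deposited table.

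Hdac4 (ENSMUSG00000026313, chromosome 1, 91928779 to 92195699, minus strand), the deacetylase that represses muscle genes after denervation and is a target of the muscle microRNA miR-1, was at 3771, 4183 and 3585 in control and at 2891, 2862 and 4378 in the knockdown. Knockdown libraries 1 and 2 lay below the control values and the third above them. The log2 change was -0.21 ± 0.20 (95% interval -0.70 to 0.27, adjusted p = 0.42, limma), and the interval leaves room for a change of either sign. Without the third knockdown library it was -0.42 ± 0.06 (adjusted p = 1.9e-04, limma). Exons of Hdac4 overlap 3536 bases of Gm26720, a noncoding RNA gene on the other strand. Gm26720 was not found among the genes measured, and its part in the Hdac4 counts was not tested.

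Hdac9 (ENSMUSG00000004698, chromosome 12, 34047580 to 34917095, minus strand), whose short form lacks the catalytic domain and which is itself described as a MEF2 target, was the least abundant of the 8 genes in control. Its normalised counts were 81.7, 84.6 and 78.9 in control and 4.97, 14.2 and 67.1 in the knockdown, from 67 to 83 and from 6, 17 and 60 reads. All knockdown values were below the controls, but the third library was 6.99 times as high as the mean of the others. The log2 change was -2.17 ± 0.86 (adjusted p = 0.086, limma), and -3.12 ± 0.36 without the third knockdown library (adjusted p = 1.9e-05, limma). The gene totals add long and short Hdac9 transcripts together.

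**Figure D2:**
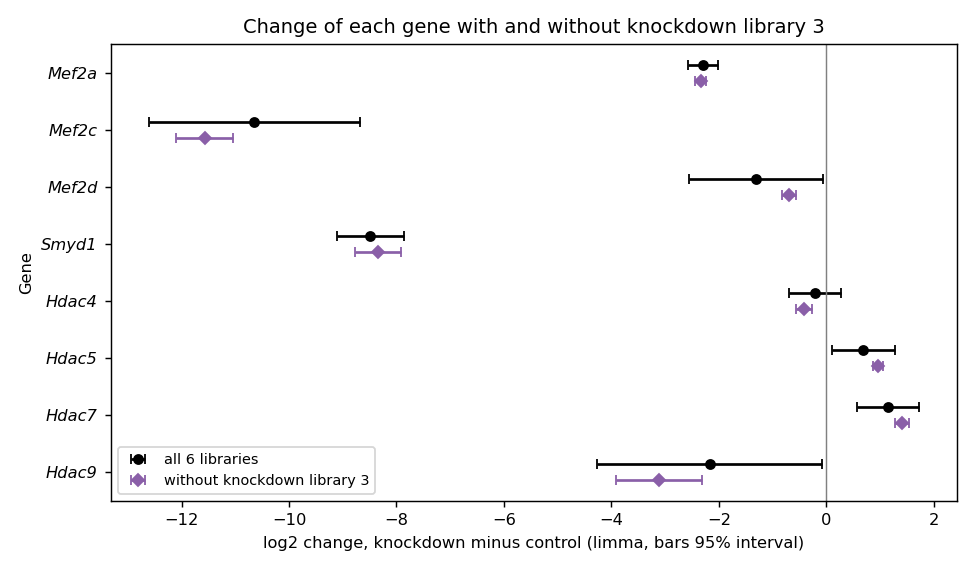
log2 change from control to knockdown (horizontal axis) of each gene with its 95% interval from limma, with all 6 libraries (black circles) and without the third knockdown library (purple diamonds). The intervals shrink without that library, and the point estimates of Mef2c and Hdac9 move to larger falls, that of Mef2d to a smaller fall, and those of Hdac5 and Hdac7 to larger rises.

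The class IIa deacetylase total was higher in every knockdown library than in any control library. Summed per exonic kilobase, Hdac4, Hdac5, Hdac7 and Hdac9 were at 965, 1001 and 946 in control and at 1880, 1767 and 1222 in the knockdown. The share of Hdac7 was 34.01 to 34.15% in control and 49.1, 47.4 and 41.6% in the knockdown. The share of Hdac4 was 24.7, 26.4 and 23.96% in control and 9.73, 10.2 and 22.7% in the knockdown. Neither share overlapped between the groups (exact two-sided permutation test, p = 0.1 for each), although the third knockdown library came within a few points of the controls for Hdac4. The share of Hdac5 was 38.8 to 41.3% in control and 41.2, 42.3 and 35.4% in the knockdown, which overlapped (exact permutation p = 0.9). Hdac9 was under 1% of the sum in every library, from 0.568 to 0.578% in control and 0.0180, 0.0549 and 0.374% in the knockdown.

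Set against each other, class IIa deacetylase RNA per length was 0.207, 0.207 and 0.211 of Mef2 RNA in control and 1.20, 1.19 and 1.85 times Mef2 RNA in the knockdown. This ratio was computed within each library, so it does not depend on the scaling between libraries, and it was chosen after the values had been seen. Its mean was 6.78-fold higher (exact two-sided permutation test, p = 0.1, the smallest possible), and without the third knockdown library the knockdown mean was 1.19 against 0.208 in control.

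Ordered by normalised count per exonic kilobase, the control levels were 2438 ± 81.9 (SD, n = 3) for Smyd1, 2028 ± 124 for Mef2d, 1408 ± 41.0 for Mef2a, 1229 ± 16.2 for Mef2c, 391 ± 1.94 for Hdac5, 331 ± 9.75 for Hdac7, 243 ± 19.4 for Hdac4 and 5.57 ± 0.197 for Hdac9. No neighbours in this order overlapped between libraries. In the knockdown the order was Mef2d (951 ± 520), Hdac7 (756 ± 219), Hdac5 (651 ± 190), Mef2a (289 ± 16.3), Hdac4 (214 ± 54.8), Smyd1 (6.86 ± 2.58), Hdac9 (1.96 ± 2.28) and Mef2c (1.15 ± 1.36). Mef2d, Hdac7 and Hdac5 overlapped there, as did Hdac9 and Mef2c, and Mef2a and Hdac4 came within 1 unit of each other (lowest Mef2a 277.5, highest Hdac4 276.8). Exonic lengths joined all annotated exons of a gene, so levels of genes with long untranslated regions that C2C12 cells do not use are understated.

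Most genes described elsewhere as MEF2 targets were lower in the knockdown. Of 16 listed, 15 were tested, 14 were lower and 0 higher, where 23.5% of all genes tested were lower and 21.7% higher, with a median log2 change of -6.98 against 0.00 over all genes tested; in the limma fit Jun, the remaining gene tested, had an unadjusted p under 0.05 and an adjusted p of 0.062. edgeR, DESeq2 and limma without the third knockdown library each called 14 lower and 1, Jun, higher. Over all genes edgeR called 22.0% lower and 23.2% higher, and DESeq2 25.8% and 27.2%. The shares were 39.9% and 38.6% for limma without that library. Slc2a4 and Srpk3 had fewer than 3 knockdown libraries at a normalised count of 10 and were tested through the control libraries. Many of these genes are structural genes of muscle that other factors drive as well, and Myog and Des are also among the markers of muscle identity given above. Hrc, a calcium-binding protein of the sarcoplasmic reticulum, was at 20443, 20756 and 19927 in control and at 67.2, 74.4 and 76.0 in the knockdown. Its log2 change was -8.12 ± 0.11 (adjusted p = 1.8e-06, limma). Myog, which encodes myogenin, fell by 6.36 ± 0.12 on the log2 scale (adjusted p = 3.7e-06, limma). Nr4a1, a MEF2 target in lymphocytes, changed least among those that fell, with a log2 change of -1.14 ± 0.24, and Jun was at 0.29 ± 0.10.

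**Figure D3:**
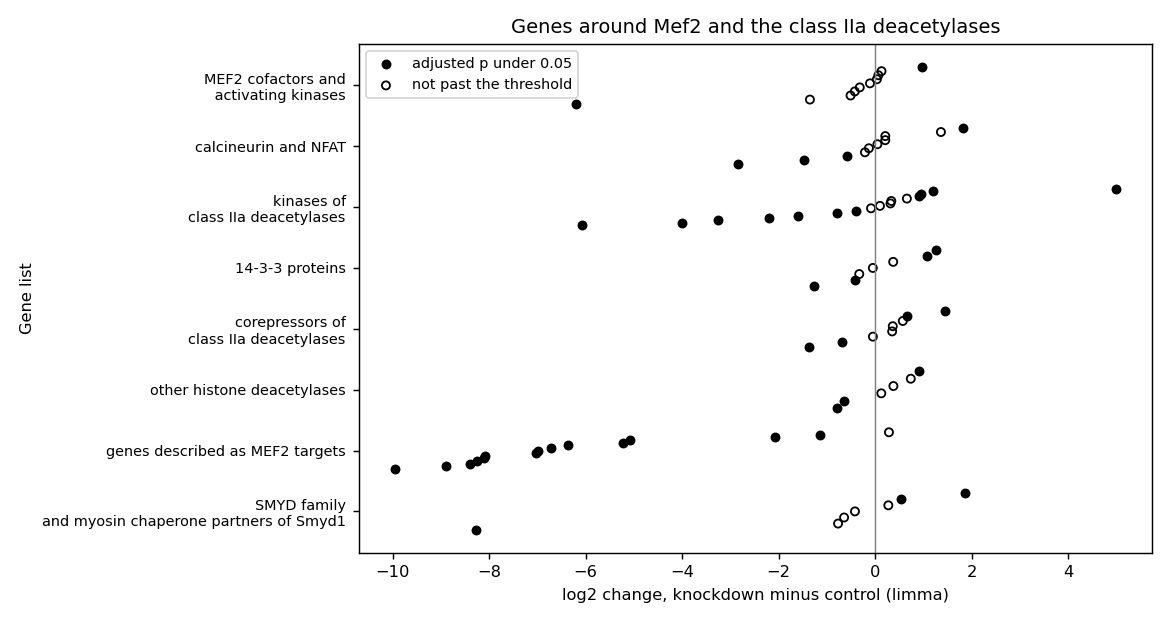
log2 change from control to knockdown (horizontal axis, limma, 6 libraries) of every gene tested in each of the 8 lists, with genes at an adjusted p under 0.05 filled and the others open. The MEF2 target list lies far to the left, with 14 of 15 filled, and the lists of kinases, 14-3-3 proteins, corepressors and other deacetylases spread to both sides of 0.

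Among cofactors of MEF2 and the kinases that activate it, 1 of 10 was lower and 1 higher, with a median of -0.21, and neither share was above that over all genes (23.5% and 21.7%). Mamstr, a muscle coactivator of MEF2 also called MASTR, was at 317, 351 and 329 in control and at 2.49, 1.67 and 8.94 in the knockdown, from 3, 2 and 8 reads. Its log2 change was -6.20 ± 0.52 (adjusted p = 2.6e-04, limma), but no knockdown library reached a normalised count of 10, so that it was tested only because it was high in control. Crebbp, a widely expressed acetyltransferase, was higher by 0.97 ± 0.30 (adjusted p = 0.040, limma), a call lost without any 1 of the control libraries (adjusted p up to 0.13); it was 0.64 without the third knockdown library. The kinase Mapk14, p38 alpha, was at 3685 to 3936 in control and at 3740, 3511 and 2133 in the knockdown and did not pass. With that knockdown library left out, 4 of the list were higher and 3 lower, and the median was 0.03, where 38.6% and 39.9% of all genes were called.

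The kinases that phosphorylate class IIa deacetylases split, with 7 of 16 lower and 4 higher and a median of 0.01, where 23.5% of all genes were lower and 21.7% higher. With any 1 library other than the third knockdown library left out, 5 were lower and 3 or 4 higher. Those fits called 2648 to 3356 of the 16245 genes lower and 2443 to 2930 higher, against 3823 and 3519 with 6 libraries. Camk4, among the 7 lower, was tested through the control libraries, and its call was lost in each of those fits. Camk2a, the alpha subunit of calcium/calmodulin-dependent kinase II, was at 11211, 10932 and 10607 in control and at 177, 141 and 169 in the knockdown. Its log2 change was -6.07 ± 0.13 (adjusted p = 3.7e-06, limma), and that of the beta subunit Camk2b was -4.01 ± 0.16. The gamma and delta subunits, which are widely expressed, had smaller log2 differences: Camk2g -0.40 ± 0.10 (adjusted p = 0.021, limma, a call lost without any 1 library other than the third knockdown library, with adjusted p up to 0.10) and Camk2d 0.10 ± 0.20 (adjusted p = 0.72, limma), which turned to -0.12 ± 0.05 without the third knockdown library and passed there (adjusted p = 0.045, limma). Camk1d, a calmodulin-dependent kinase I form, was at 33.8, 61.9 and 47.5 in control and at 1529, 1493 and 1519 in the knockdown, a log2 change of 5.0 ± 0.24 (adjusted p = 3.7e-05, limma). Camk1 rose by 0.95 ± 0.10. Without the third knockdown library 8 were lower and 6 higher (39.9% and 38.6% of all genes), with a median of -0.06; Prkd1 was not analysed here.

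In the calcineurin and NFAT list, which signals in parallel to MEF2 in muscle, 3 of 10 were lower and 1 higher, where 23.5% and 21.7% of all genes were; Nfatc2, among those lower, was tested through the control libraries, and the median of -0.04 turned to 0.08 with upper-quartile scaling. Nfatc4 rose from 661, 645 and 648 to 2555, 2387 and 1970 (log2 change 1.81 ± 0.13, adjusted p = 1.7e-04, limma), and Nfatc3 fell by 1.47 ± 0.24 (adjusted p = 0.0037, limma). The log2 change of Nfatc3 was -1.21 ± 0.07 without the third knockdown library. Counts without the third knockdown library were 5 higher and 4 lower, with a median of 0.14, where 38.6% and 39.9% of all genes were called. Of the 14-3-3 genes, 2 of 7 were lower and 2 higher, with a median of -0.05 that became 0.07 with upper-quartile scaling. Leaving out any 1 control library gave 0 lower and 1 higher. Those fits called 2648 to 2778 of the 16245 genes lower and 2443 to 2608 higher, against 3823 and 3519 with 6 libraries. Leaving out the third knockdown library gave 3 lower and 2 higher. Over all genes 23.5% were lower and 21.7% higher, and 39.9% and 38.6% without that library. Ywhaq, which encodes the theta form, rose by 1.08 ± 0.15 (adjusted p = 0.0017, limma) and this call held with any 1 library left out. The fall of Ywhag (-1.27 ± 0.32, adjusted p = 0.020, limma) was lost without any 1 of the control libraries (adjusted p up to 0.076).

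Of 8 corepressor genes, 2 were lower and 2 higher, with a median of 0.36, near the shares over all genes (23.5% and 21.7%). The counts changed when 1 library was left out. Without any 1 of the control libraries 1 was lower and 0 higher. Those fits called 2648 to 2778 of the 16245 genes lower and 2443 to 2608 higher, against 3823 and 3519 with 6 libraries. Without the third knockdown library 2 were lower and 5 higher (39.9% and 38.6% of all genes). Ctbp1, which class IIa deacetylases can recruit, fell by 0.68 ± 0.11 (adjusted p = 0.0036, limma), and this call held with any 1 library left out. Hdac3, the catalytic partner of the class IIa proteins, did not pass with 6 libraries (0.37 ± 0.15, adjusted p = 0.090, limma) and passed without the third knockdown library (0.23 ± 0.05, adjusted p = 0.0016, limma). Among 6 deacetylases of other classes, Hdac1 was higher (0.91 ± 0.11, adjusted p = 0.0012, limma) and Hdac2, its close relative, was lower (-0.66 ± 0.10, adjusted p = 0.0030, limma). The third call in this list, Hdac11, had a log2 change of -0.79 ± 0.25 (adjusted p = 0.046, limma), and its adjusted p reached 0.13 with a library left out; it was -0.51 without the third knockdown library. Of the 6, 2 were lower and 1 higher, where 23.5% and 21.7% of all genes were, with a median of 0.25, and without the third knockdown library 4 were higher and 2 lower.

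The genes with the pattern most like each member were found over the 6 libraries among 11832 genes whose mean was 100 or more, as the Euclidean distance between log2 values centred on the control mean. For Mef2c the nearest were the cadherin gene Cdh11 (distance 1.15), the cannabinoid receptor gene Cnr1 (1.20) and the myosin heavy chain gene Myh4 (1.23). Cdh11 was at 11338, 11531 and 11001 in control and at 1.66, 0.836 and 21.2 in the knockdown, with the same higher value in the third library. For Smyd1 the nearest were the muscle LIM protein gene Csrp3 (0.463), the cardiac actin gene Actc1 (0.519) and the embryonic myosin gene Myh3 (0.525). For Mef2a they were Acsl4 (0.124), which activates fatty acids, and Kif11 (0.138) and Ndc80 (0.141) of the mitotic spindle. The nearest to Mef2d were Cul4a (0.110), Lbr (0.139) and Kansl1l (0.158), and Cul4a shared its low value in the third knockdown library (1720, against 6061 and 5932 in the others). The nearest were Lnpk (0.0873) for Hdac4, Aldh3a2 (0.0730) for Hdac5, Abcc5 (0.0732) for Hdac7 and Cdc25c (0.923) for Hdac9. With 2 groups and 6 libraries, many genes share such a pattern.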

How the data were processed

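RNA of 6 libraries was analysed. The labels name TRIzol for extraction and poly(A) selection of messenger RNA, and, per the labels' protocols, reads of 150 bp were taken from both ends on a HiSeq sequencer. The tools and build were GRCm38, DESeq2, Subread 1.5.2 with featureCounts, and Trimmomatic 0.36, per the submitters' processing notes. Not given in the sources used here were the aligner, gene annotation, strand setting and DESeq2 release. The deposited signal is a read count per gene scaled by each library's size factor; 100% of values were whole multiples of 1 read (tolerance 0.01 reads), so whole reads were recovered. The authors' deposited log2 fold change and p-value columns are quoted where named.

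limma 3.58.1 (R 4.3.3) was run two-sided on log2(value + 1), with its variance trend and without block or covariates; p-values were adjusted (Benjamini-Hochberg) over 16245 genes at 0.05. Fold changes on this scale understate the change of low genes. Shares used an exact two-sided permutation test (scipy 1.17.1). Gene positions and exonic lengths came from GENCODE M21 (GRCm38), with 16806 genes matched by identifier and 48 not; promoters came from RefSeq. Intervals cover the spread between these libraries.

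The genes, the lists around them and the naming rule were chosen with earlier results of these data known. The rule named the 8 genes and Adamtsl2, up to 2 genes per direction of each list by smallest adjusted p with groups that do not overlap (or else the most abundant), and the 3 nearest patterns of each gene; some such genes are not reported here, and Camk2g, Camk2d, Mapk14, Hdac3, Nr4a1, Jun, 1700113A16Rik and Lysmd4 were named after their values were seen. Cell type markers were a separate list. Alternatives were edgeR 4.0.16 or DESeq2 1.42.0 run on the recovered reads, other scalings (upper quartile, TMM), limma with its trend switched off, a pseudocount of 0.5 or 5, a filter of 50 or none, the replicate number as a block, leaving out each library, and shares without division by length; edgeR and DESeq2 without the third knockdown library were added after seeing the data. The procedure was also run on simulated reads in which few genes changed and no library stood apart. That setting differs from these data, so no conclusion is drawn from it. A chi-square test of reads per gene gave 3.66 for knockdown libraries 1 and 2 and 6.33 to 14.6 for control pairs, against 1 for sampling noise alone. For the third knockdown library it gave 740 with the first and 696 with the second. Values above 1 cannot tell separate cultures from separate technical preparations. All 6 libraries were kept as separate replicates. The labels give no batch or date.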

Additional observations from a re-analysis of the deposited data

How the results depend on the processing

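In all 18 alternatives Mef2a, Mef2c, Smyd1 and Hdac7 kept their direction and their call, with log2 changes of -2.33 to -2.17, -11.69 to -9.91, -8.77 to -8.30 and 0.98 to 1.43. Mef2d, Hdac4, Hdac5 and Hdac9 kept their direction and passed in 4, 3, 6 and 3 alternatives, always including the 3 without the third knockdown library. DESeq2 also called Mef2d (adjusted p = 0.049), and Hdac5 also passed with upper-quartile scaling, edgeR and DESeq2 (adjusted p = 0.017, 0.038 and 0.011), so that the number of the 8 genes called higher was 2 there. Upper-quartile scaling and edgeR moved the median of all genes by 0.11; relative to it Hdac5 changed by 0.69 and 0.66. With 1 library left out, genes called higher ranged from 2443 to 6269 and lower from 2648 to 6485, and members called higher from 1 to 2 and lower from 3 to 6, the highest each time without the third knockdown library. Without that library edgeR called 6489 genes higher and 6459 lower and DESeq2 called 5994 and 6184, and both called 2 of the 8 genes higher and 6 lower. The difference in Mef2a's share (knockdown minus control, -2.54 percentage points) ranged from -11.93 to 2.34 with 1 library left out, positive without knockdown library 1 or 2 (2.34 and 1.97), and was 6.51 when values were not divided by length. That of Hdac5 (-0.66) ranged from -2.02 to 1.47, positive without the third knockdown library, and was 3.77 without division by length, where that of Mef2c was -36.8 instead of -26.2. A replicate block gave adjusted p values of 0.0017 for Mef2a, 0.0015 for Mef2c, 3.7e-04 for Smyd1, 0.018 for Hdac7, 0.067 for Mef2d, 0.075 for Hdac5, 0.085 for Hdac9 and 0.48 for Hdac4, with no call changed among the 8, and 3010 and 3301 genes called higher and lower. The labels tie same-numbered libraries only by that number, and their deviations correlated at 0.0169, 0.105 and 0.143. For control libraries 1 and 3 the same-numbered knockdown library was the best match. Control library 2 correlated slightly better with knockdown library 1 (0.116) than with knockdown library 2 (0.105). With so few libraries, these values cannot decide whether same-numbered libraries were paired. Apart from the third knockdown library and from what is constructed differently (tool, scaling, length), the cause of these shifts was not tested. Depth limits Hdac9 (6 to 83 reads) and the knockdown values of Mef2c (4 to 38 reads), and a count of 0 would allow up to 3 reads per library.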
